A study of Mus musculus with 8 samples.

Results

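The genes described here encode extracellular matrix proteins, the proteases that cut them and the inhibitors of those proteases, measured by RNA sequencing in bone-marrow-derived macrophages of mice. They were chosen by symbol alone: all collagen chains, laminin chains, matrix metalloproteinases (Mmp), tissue inhibitors of metalloproteinases (Timp), and the Adam and Adamts metalloproteinases, together with Fn1, Sparc, Spp1, Dcn, Lum, Fbn1, Nid1, Hspg2, Thbs1 and Vcan. This rule found 91 of the 14485 genes listed in the authors' deposited tables. Of these, 79 are listed with PBS, 88 with IL-4 and 76 under both treatments. The members were divided, from general knowledge, into 19 that macrophages are known to make, 32 of likely stromal origin, meaning genes typical of fibroblasts and related cells, and 40 in neither class.

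Libraries were labelled NIK KO with PBS, NIK KO with IL-4, WT with PBS and WT with IL-4, 2 of each, from 4 female mice aged 12 weeks that each gave cells to both treatments. NIK is the NF-κB-inducing kinase of the noncanonical NF-κB pathway, and neither allele nor strain is named in the labels. Marrow of all 4 mice was grown for 7 days in 30% medium conditioned by L929 cells, a fibroblast line that serves as a source of the growth factor M-CSF, replated in 5% of it, and given PBS or 20 ng/mL of interleukin 4 (IL-4) for 6 hours. The authors' deposited tables hold 1 comparison of the genotypes per treatment and no value per library, so the levels below are group means of size-factor-normalized counts without an error of their own, and the error of each comparison is the standard error (SE) of its log2 fold change, NIK KO over WT, 2 mice against 2. All 10 macrophage identity markers, among them Csf1r, Cd68 and Lyz2, are listed under both treatments, with summed means of 652077 in the libraries labelled NIK KO and 639599 in WT with PBS, and of 481211 in NIK KO and 505802 in WT with IL-4. Lyz2 and Csf1r carry most of these sums, and the other 8 markers summed to 84722 in NIK KO and 81625 in WT with PBS and to 95356 in NIK KO and 79459.8 in WT with IL-4.

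The targeted gene goes against its label. Map3k14, which encodes NIK, averaged 832 normalized counts in the libraries labelled NIK KO and 418 in WT with IL-4, and 902 in NIK KO and 425 in WT with PBS. In the authors' deposited tables this is a log2 fold change of 0.99 ± 0.22 with IL-4 (DESeq2 Wald test, Benjamini-Hochberg adjusted p = 0.00782) and of 1.09 ± 0.28 with PBS (DESeq2 p = 1.08e-04, adjusted p = 0.176). The IL-4 table is named for NIK KO over WT, and that direction was taken for both tables; were it the reverse, each sign would turn and the 2 group means would change places.

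Fibrillar collagens form the tensile fibres of connective tissue: type I and type III chains are laid down mainly by fibroblasts, and type V chains set the width of those fibres. Basement membranes are thin sheets of type IV collagen, laminins, nidogen and perlecan. Macrophages contribute little fibrillar collagen but secrete fibronectin and osteopontin, and they remodel matrix with secreted proteases such as the macrophage elastase Mmp12 and with membrane-bound Adam sheddases, which are held in check by the Timp inhibitors.

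Among the 91 genes, 3 differed between the genotypes with IL-4 and none with PBS. With IL-4 the fibrillar collagen genes Col3a1 and Col5a1 had fallen in the NIK KO libraries, whereas the laminin chain gene Lamb3 had risen. These 3 are of 80 members with an adjusted p, against a background of 0.125% of genes called in the same table (17 of 13642). Col3a1 alone stayed called when genes sharing over 50% of their transcript words with another gene were left out before adjustment. Col5a1 and Lamb3 were not among the genes left out, and only the set they were adjusted over had changed. With a t distribution (2 degrees of freedom) in place of the normal 0 were called, but its smallest p for any gene, 0.00246, could not pass. The authors' DESeq2 test called 0 of 79 members with PBS, where 0.0366% of all genes passed (5 of 13676). At an unadjusted p under 0.05, 3 members stood out with PBS (Mmp8, Mmp13 and Col6a3), 3.80% of the members listed, against 1.24% of all genes. With IL-4, 12 of 88 members (13.6%) were lower at an unadjusted p under 0.05, against 1.32% of all genes, and 1 member, Lamb3, was higher, against 1.62% of all genes.

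**Figure D1:**
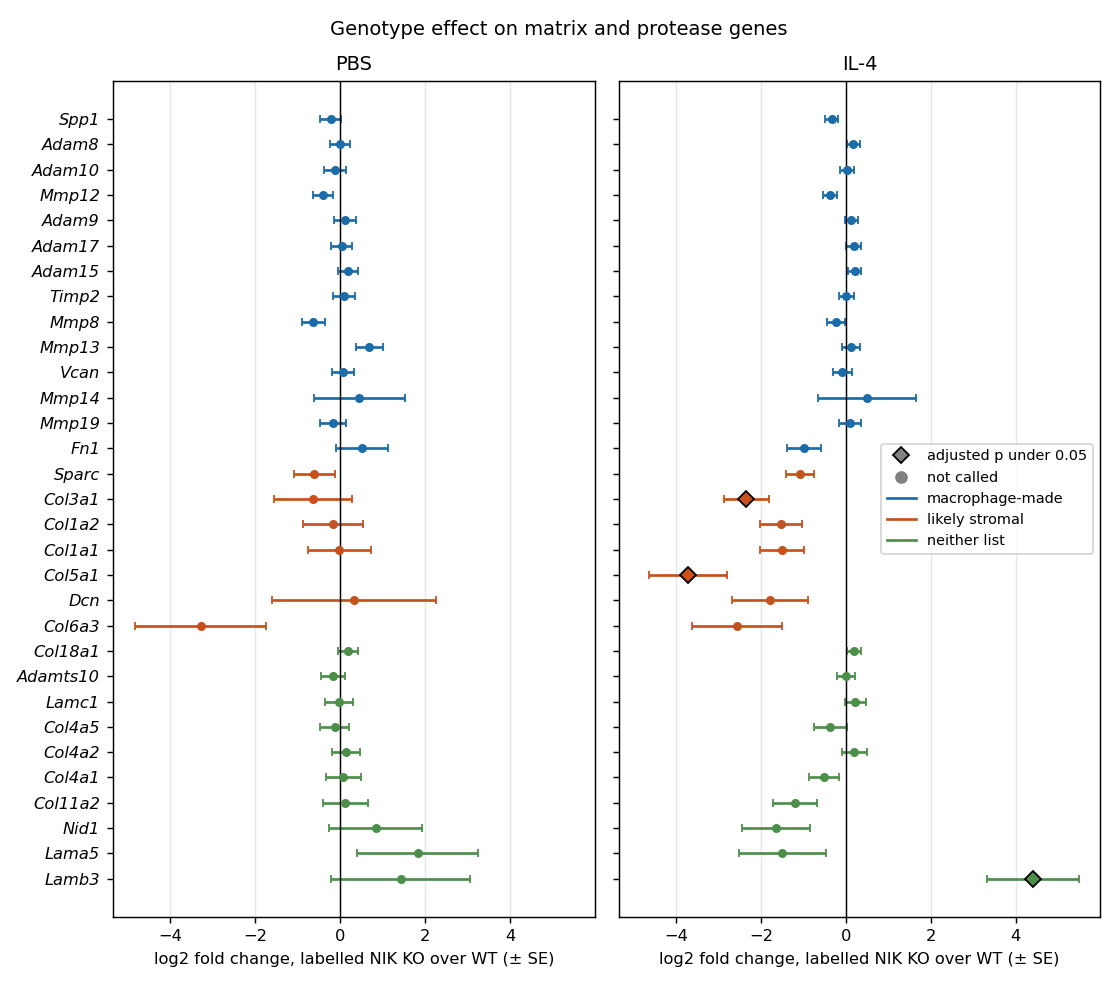
Genotype effect on the 31 members named by the rule in the methods, with PBS (left) and IL-4 (right). Points are the log2 fold changes of the libraries labelled NIK KO over WT from the authors' deposited tables and bars are 1 SE; diamonds mark an adjusted p under 0.05 and colours the classes. Col5a1 has no point with PBS because it is not listed there. With IL-4 the 7 stromal genes shown, which the naming rule took for their p, lie below 0, while the Adam genes lie within 0.21 of 0.

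Type III collagen gave the clearest difference among the members. Col3a1 (ENSMUSG00000026043, chromosome 1), the gene of its single chain, fell to 25.6 normalized counts in the libraries labelled NIK KO with IL-4, against 129 in WT. The authors' deposited table gives a log2 fold change of -2.34 ± 0.53 (95% interval -3.38 to -1.31, adjusted p = 0.0107 by DESeq2). With PBS it averaged 18.4 in NIK KO and 28.7 in WT, and the log2 fold change of -0.64 ± 0.92 in the authors' deposited table did not exceed its error (DESeq2 p = 0.486). The effects under the 2 treatments were not shown to differ (p = 0.108 from the authors' fold changes and SEs). Because these are bulk libraries, fewer cells of a type and less RNA per cell cannot be told apart, here and for each gene below.

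Col5a1 (ENSMUSG00000026837, chromosome 2), the main type V chain, fell to 3.49 normalized counts in NIK KO with IL-4, against 46.0 in WT. Its log2 fold change was -3.72 ± 0.92 in the authors' deposited table (95% interval -5.52 to -1.92, DESeq2 adjusted p = 0.0401). It is not listed with PBS, so its effect there is not known. Its partner chain gene Col5a2 averaged 20.7 in NIK KO and 24.3 in WT with IL-4, with a log2 fold change of -0.23 ± 0.83 in the authors' deposited table. Col5a2 lies next to Col3a1 on chromosome 1 with 0 protein-coding genes between them, and the neighbours thus had unlike estimates, although a difference between them was not tested.

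The type I chains did not pass the adjusted threshold. With IL-4, Col1a1 averaged 36.1 normalized counts in NIK KO and 103 in WT, and Col1a2 averaged 37.3 in NIK KO and 107 in WT. In the authors' deposited table their log2 fold changes were -1.51 ± 0.52 (DESeq2 p = 0.00369, adjusted p = 0.724) and -1.52 ± 0.49 (DESeq2 p = 0.00208, adjusted p = 0.511). With PBS the same genes were nearly level, Col1a1 at 28.2 in NIK KO and 28.6 in WT and Col1a2 at 30.9 in NIK KO and 34.7 in WT. The 2 chains that assemble into 1 molecule thus had closely similar estimates in each table. Col11a2, a minor fibrillar chain best known from cartilage, averaged 80.3 in NIK KO and 184 in WT with IL-4 (-1.20 ± 0.52 in the authors' deposited table, DESeq2 p = 0.0219, adjusted p = 1.00), and 73.5 in NIK KO and 67.4 in WT with PBS.

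Of the 10 fibrillar collagen genes, 9 had a lower mean in NIK KO with IL-4, with a median log2 fold change of -1.20, against -0.11 over the 2635 genes of base mean 10 to 100 and -0.01 over all genes. The exception was Col5a3, at 4.32 in NIK KO and 2.07 in WT with an SE of 2.25. The summed mean of the 10 was 275 in NIK KO and 683 in WT with IL-4. With PBS 9 of the 10 are listed, and their sums were 205 in NIK KO and 212 in WT. Col27a1 and Col11a1, which are further fibrillar chains, had IL-4 estimates near 0 (-0.12 ± 0.71 and -0.23 ± 0.78 in the authors' deposited table), so the low values did not extend evenly to every chain.

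The start regions of the 3 called genes and of Col1a2 are printed to show the sequence just before their first base. Each is the 150 bases before a RefSeq start site, on the plus strand of GRCm38.p6, at chr1:45311388-45311537 for Col3a1, chr2:27886275-27886424 for Col5a1, chr6:4505468-4505617 for Col1a2 and chr1:193301844-193301993 for the first of 2 Lamb3 starts. Capitals mark matches to 5 motifs, read on either strand. The TATA motif was searched for with the letters TATAAA and the CCAAT motif by its own 5 letters. A GC box was taken as GGGCGG in this search, and a loose NF-κB pattern was written with the letters GGGNNNNNCC. The AP-1 motif was the triplet TGA, then any base, followed by the triplet TCA. No matches overlap in the windows shown.
Col3a1: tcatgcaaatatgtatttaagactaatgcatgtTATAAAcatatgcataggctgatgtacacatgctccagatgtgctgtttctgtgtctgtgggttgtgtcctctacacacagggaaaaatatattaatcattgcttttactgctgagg
Col5a1: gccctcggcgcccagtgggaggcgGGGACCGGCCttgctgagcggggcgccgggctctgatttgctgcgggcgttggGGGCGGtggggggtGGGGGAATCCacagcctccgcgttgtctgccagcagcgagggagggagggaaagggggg
Col1a2: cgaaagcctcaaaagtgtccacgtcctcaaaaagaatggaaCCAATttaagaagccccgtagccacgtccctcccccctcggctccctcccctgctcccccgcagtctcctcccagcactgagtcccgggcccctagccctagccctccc
Lamb3: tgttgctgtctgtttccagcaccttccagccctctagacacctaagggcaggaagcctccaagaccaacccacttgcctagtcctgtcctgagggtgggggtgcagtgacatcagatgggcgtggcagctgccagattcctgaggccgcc
Col3a1 holds a TATA match from -117 to -112 relative to the start, Col1a2 a CCAAT match from -109 to -105, and Col5a1 a GC box match from -73 to -68 and NF-κB matches from -126 to -117 and from -59 to -50. Neither Lamb3 window holds any of the 5 motifs. Among 69 such windows, matched by symbol to 60 of the 91 members, 34 (49.3%) hold the NF-κB pattern, against 35.4% of all 32851 windows, and 35 (50.7%) hold a GC box, against 28.6%. CCAAT was found in 13 (18.8%) against 24.5%, TATAAA in 5 (7.25%) against 7.57%, and the AP-1 pattern in 5 (7.25%) against 4.24%. A match is a run of letters and not a site shown to be used.

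Other genes typical of stromal cells had lower means as well, without passing. Sparc (chromosome 11), which encodes the collagen-binding glycoprotein osteonectin, averaged 123 normalized counts in NIK KO and 261 in WT with IL-4, and 54.9 in NIK KO and 83.5 in WT with PBS. The authors' deposited tables give -1.08 ± 0.33 with IL-4 (DESeq2 p = 9.06e-04, adjusted p = 0.275) and -0.61 ± 0.49 with PBS (DESeq2 p = 0.215). Dcn, the gene of the small proteoglycan decorin, averaged 10.05 in NIK KO and 34.7 in WT with IL-4 and 3.62 in NIK KO and 2.89 in WT with PBS. Lum, which encodes the related lumican and lies beside Dcn on chromosome 10, was near the limit of detection in every group, between 2.03 and 7.97. Fbn1, for the microfibril protein fibrillin-1, ran the other way in both tables, at 35.3 in NIK KO and 23.8 in WT with IL-4 and at 25.8 in NIK KO and 13.6 in WT with PBS (0.57 ± 0.70 and 0.92 ± 0.85 in the authors' deposited tables).

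Type VI collagen, which forms beaded filaments around cells, was low throughout. Col6a3 averaged 5.26 normalized counts in NIK KO and 31.1 in WT with IL-4, and 1.58 in NIK KO and 15.4 in WT with PBS. Its log2 fold changes in the authors' deposited tables were -2.56 ± 1.07 with IL-4 (DESeq2 p = 0.0166, adjusted p = 1.00) and -3.28 ± 1.55 with PBS (DESeq2 p = 0.0343, adjusted p = 1.00). It is the single member that had an unadjusted p under 0.05 in both tables, in the same direction, and the same 4 mice stand behind both. Col6a1 and Col6a2, the partner chains, lay between 3.80 and 8.13 in NIK KO and between 5.77 and 16.0 in WT, lower in NIK KO in both tables and far from the threshold.

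**Figure D2:**
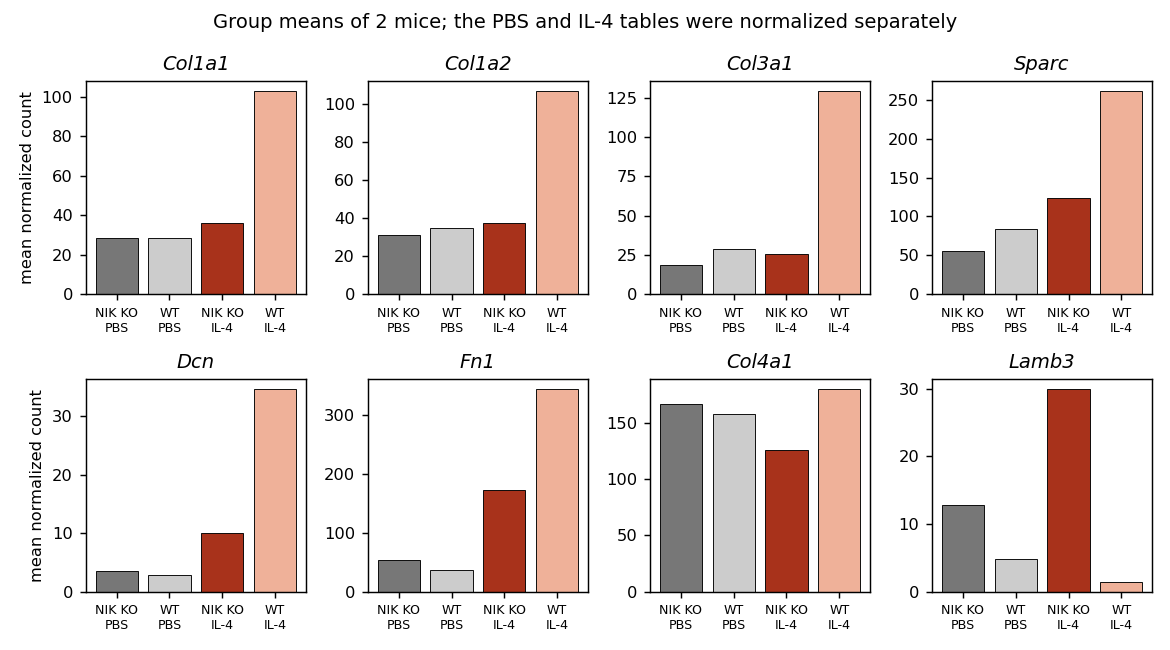
Mean normalized counts of 8 members in the 4 groups, in each panel from left to right NIK KO with PBS, WT with PBS, NIK KO with IL-4 and WT with IL-4. The means carry no error bars because the deposited tables hold no values per library, and PBS and IL-4 levels come from tables normalized separately. For Col3a1, Col1a1, Sparc and Fn1 the WT libraries with IL-4 hold the highest mean of the 4 groups.

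Taken by class, the median with IL-4 was lowest among the stromal genes. Of 31 stromal members listed with IL-4, 26 were lower in NIK KO and 5 higher, with a median log2 fold change of -1.06, and 7 (22.6%) had an unadjusted p under 0.05, all lower, against 1.32% of all genes lower at that threshold. Their summed mean was 571 in NIK KO and 1175 in WT. Of the 19 members that macrophages make, 9 were lower and 10 higher, with a median of 0.01, and 3 (15.8%), Fn1, Mmp12 and Spp1, were lower at an unadjusted p under 0.05. Of 38 members in neither class 23 were lower and 15 higher, with a median of -0.27, and 2 (5.26%), Col11a2 and Nid1, were lower at that threshold. As the classes were drawn, 5 of the 12 lower members fall outside the stromal class. One of them is the fibrillar collagen gene Col11a2, whereas Col11a1 was placed inside it. With PBS the stromal median was -0.40 (17 lower and 8 higher of 25), that of the macrophage genes 0.07 and that of the rest 0.13. The 2 stromal medians cover unlike sets, as 7 members listed with IL-4 are not listed with PBS. All of these but Mmp23 were lower in NIK KO with IL-4, and Adamts2, Adamts9 and Col14a1 had NIK KO means under 1. Among the stromal genes 1 of 31 has a base mean of 100 or more. Over all genes of base mean 10 to 100, 1557 of 2635 were lower with IL-4, with a median of -0.11. Of those 2635 genes, 2.73% were lower at an unadjusted p under 0.05. No test of the class medians was made, and the classes were drawn up with earlier results of these data known.

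**Figure D3:**
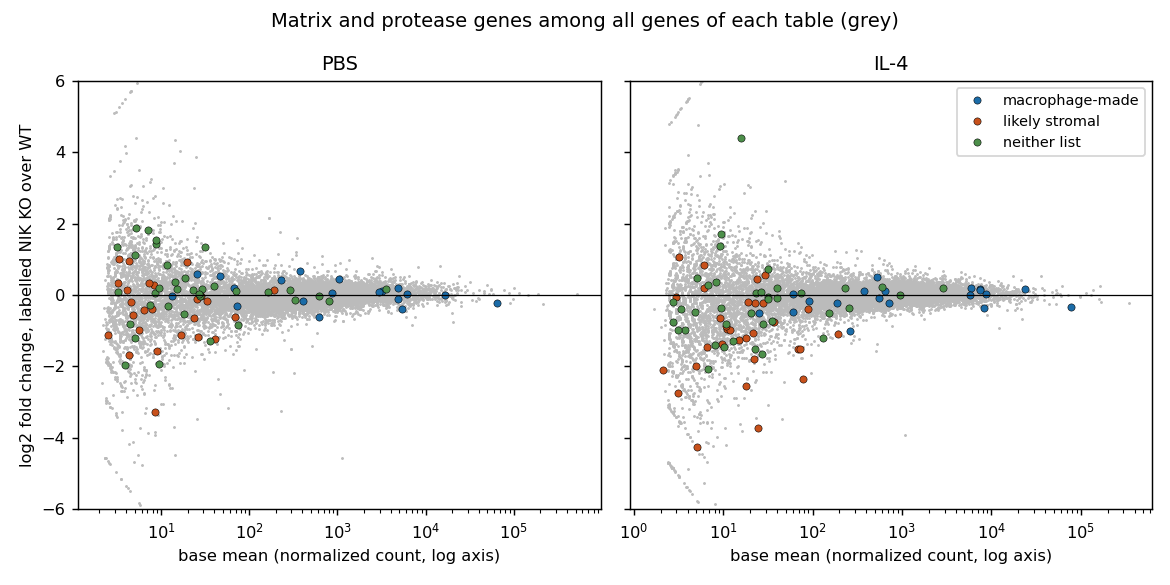
Log2 fold change of NIK KO over WT against base mean on a log axis, for all genes (grey) and for the members by class, with PBS (left) and IL-4 (right). Genes beyond 6 on the log2 scale, 16 with PBS and 11 with IL-4, are not drawn. Of the 19 macrophage members, 14 with PBS and 15 with IL-4 have a base mean of 100 or more, against 1 stromal member in each table, and with IL-4 most stromal members lie below 0.

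Fibroblast markers outside the members were examined beside these values. Of 23 markers fixed for fibroblasts and mesenchymal stroma, 18 are listed with IL-4, of which 13 were lower in NIK KO, with a median of -0.81. DESeq2 called 0 of the 18, and 1 (5.56%) had an unadjusted p under 0.05, against 2.95% of all genes. With PBS 14 are listed, 4 lower, with a median of 0.21 (0 called by DESeq2, 0 at an unadjusted p under 0.05). Igfbp4 and Lox make up most of the summed level, and without them the sum was 217 in NIK KO and 372 in WT with IL-4, and 190 in NIK KO and 164 in WT with PBS. Over all listed markers the sums were 3567 in NIK KO and 3345 in WT with IL-4 and 4341 in NIK KO and 3824 in WT with PBS. The smallest p was that of Fstl1, which encodes a secreted glycoprotein, at 15.8 in NIK KO and 46.3 in WT with IL-4 (-1.55 ± 0.72 in the authors' deposited table, DESeq2 p = 0.0322), followed by Tagln, a smooth muscle and myofibroblast gene, at 48.0 in NIK KO and 94.2 in WT (-0.97 ± 0.55). Thy1, Ccn2, Loxl1, Tcf21 and Twist2 are not listed under either treatment, nor are Pdgfra, Prrx1, Lepr and Mfap5 with PBS. With IL-4 those last 4 were all lower in NIK KO, at -1.77, -0.97, -2.57 and -2.55, with base means from 4.29 to 7.92. They count among the 13 lower markers, so the medians with IL-4 and PBS cover unlike sets of genes. The part of stromal cells in the collagen values was not tested.

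Globin genes among the erythroid markers also had lower means with IL-4. Of 8 erythroid markers 5 are listed with IL-4, and 0 were called by DESeq2. The 4 globin genes Hba-a1, Hba-a2, Hbb-bs and Hbb-bt were lower in NIK KO at an unadjusted p under 0.05, against 1.32% of all genes. Alas2, the only other marker listed, was at 0.13 ± 1.93 with a base mean of 4.87. The summed means, nearly all globin, were 154 in NIK KO and 341 in WT with IL-4 and 103 in NIK KO and 96.1 in WT with PBS. Hbb-bt, a globin gene, averaged 11.1 in NIK KO and 49.5 in WT with IL-4 (-2.15 ± 0.75 in the authors' deposited table, DESeq2 p = 0.00413, adjusted p = 0.772). The neutrophil markers summed to 173 in NIK KO and 242 in WT with IL-4 and to 203 in NIK KO and 224 in WT with PBS. Of the 5 listed with IL-4, 1 (20%) was lower at an unadjusted p under 0.05, against 1.32% of all genes, and 0 were called. It was S100a8, at -0.80 ± 0.40 in the authors' deposited table (DESeq2 p = 0.0445). S100a8 and S100a9 are the 2 most abundant genes of that list. The platelet markers summed to 1111 in NIK KO and 982 in WT with IL-4 and to 888 in NIK KO and 749 in WT with PBS. The endothelial markers summed to 2327 in NIK KO and 2242 in WT with IL-4 and to 1286 in NIK KO and 1315 in WT with PBS. Without its 2 most abundant genes, the erythroid list summed to 59.7 in NIK KO and 143 in WT with IL-4 and to 37.6 in NIK KO and 35.3 in WT with PBS, and the neutrophil list to 32.9 in NIK KO and 33.1 in WT with IL-4 and to 38.1 in NIK KO and 26.2 in WT with PBS. On the same footing the platelet list summed to 15.7 in NIK KO and 23.5 in WT with IL-4 and to 26.6 in NIK KO and 26.3 in WT with PBS, and the endothelial list to 249 in NIK KO and 255 in WT with IL-4 and to 50.8 in NIK KO and 29.5 in WT with PBS. Of the osteoblast markers Runx2 alone is listed, and of the adipocyte markers Fabp4 under both treatments and Adipoq with IL-4. Adgre1, which encodes the macrophage marker F4/80, was at 0.54 ± 0.18 with IL-4 in the authors' deposited table (DESeq2 p = 0.00320, adjusted p = 0.672). The part of these cells in the members' differences was not tested.

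Basement membrane genes had a single call, and it was in the opposite direction to the collagens. Lamb3 (ENSMUSG00000026639, chromosome 1), the β3 chain of the epithelial laminin-332, rose to 30.0 normalized counts in NIK KO with IL-4, against 1.42 in WT. The authors' deposited table gives 4.40 ± 1.08 (95% interval 2.28 to 6.52, DESeq2 adjusted p = 0.0401), and since the WT mean is near 1 count, the size of the fold is poorly fixed. With PBS it averaged 12.8 in NIK KO and 4.77 in WT (1.43 ± 1.63 in the authors' deposited table, DESeq2 p = 0.382), and the 2 effects were not shown to differ (p = 0.129 from the same estimates).

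The widely expressed laminin chains gave a different picture. Lamc1, the γ1 chain of most laminins and the most abundant laminin gene here, averaged 649 normalized counts in NIK KO and 555 in WT with IL-4, and 608 in NIK KO and 618 in WT with PBS, both within the error (0.22 ± 0.25 and -0.02 ± 0.34 in the authors' deposited tables). Lama5, the α5 chain, averaged 11.7 in NIK KO and 33.2 in WT with IL-4 but 11 in NIK KO and 3.10 in WT with PBS. Its effects lay on opposite sides of 0, and the difference, -3.33 ± 1.75, did not pass (p = 0.0574 from the authors' DESeq2 estimates). Lamb2, for the β2 chain, averaged 42.6 in NIK KO and 37.3 in WT with IL-4 and 21.2 in NIK KO and 51.3 in WT with PBS (0.19 ± 0.72 and -1.28 ± 0.75 in the authors' deposited tables, the PBS value with a DESeq2 p of 0.0886). Lamb1, for the β1 chain, was at -0.72 ± 0.67 with IL-4 and 0.36 ± 0.98 with PBS in the authors' deposited tables, and neither gene was called.

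Nid1, which encodes nidogen, the linker between laminin and type IV collagen, averaged 13.1 normalized counts in NIK KO and 41.1 in WT with IL-4 and 14.8 in NIK KO and 8.27 in WT with PBS. Its log2 fold change of -1.65 ± 0.80 with IL-4 in the authors' deposited table had a DESeq2 p of 0.0401 and an adjusted p of 1.00. The difference between the treatments was -2.49 ± 1.35 (p = 0.0665 from the authors' DESeq2 estimates). Hspg2, for the heparan sulfate proteoglycan perlecan, was at 20.1 in NIK KO and 35.4 in WT with IL-4 and at 22.0 in NIK KO and 15.7 in WT with PBS.

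Type IV collagen was better expressed and close to level. Col4a1 and Col4a2, adjacent genes on chromosome 8 whose products form 1 trimer, averaged 126 and 244 normalized counts in NIK KO with IL-4 and 180 and 213 in WT. With PBS they averaged 167 and 305 in NIK KO and 158 and 275 in WT. In the authors' deposited tables Col4a1 was at -0.51 ± 0.34 with IL-4 and 0.08 ± 0.41 with PBS, and Col4a2 at 0.20 ± 0.30 and 0.15 ± 0.33. Col4a5, on the X chromosome, was at -0.36 ± 0.38 with IL-4 and -0.13 ± 0.35 with PBS in the authors' deposited tables. Col18a1, the source of the fragment endostatin, was the most abundant collagen gene in these libraries, at 3032 in NIK KO and 2651 in WT with IL-4 and at 3725 in NIK KO and 3283 in WT with PBS. Its log2 fold changes of 0.19 ± 0.17 and 0.18 ± 0.24 in the authors' deposited tables were within about 1 SE of 0, with 95% intervals of -0.14 to 0.53 and -0.29 to 0.65.

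Among the matrix glycoproteins placed in the macrophage class, Fn1, for fibronectin, had the genotype estimates furthest apart between treatments. Bulk libraries do not show which cells made it. Fn1 averaged 173 normalized counts in NIK KO and 345 in WT with IL-4, and 54.3 in NIK KO and 37.7 in WT with PBS. The authors' deposited tables give -0.99 ± 0.40 with IL-4 (DESeq2 p = 0.0132, adjusted p = 1.00) and 0.52 ± 0.61 with PBS (DESeq2 p = 0.389). The difference of -1.52 ± 0.73 gave p = 0.0372 from the authors' DESeq2 estimates, and an adjusted p of 1.00 over all 13384 genes in both tables. Fn1 was the only one of 76 members under 0.05 in that test before adjustment, against 0.867% of all genes, and 0 members passed after it, against 0.0149%. The test ignores that the same mice stand behind both tables.

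Spp1, the gene of osteopontin, was by far the most abundant member. It averaged 69182 normalized counts in NIK KO and 86962 in WT with IL-4, and 59819 in NIK KO and 69901 in WT with PBS. Per kilobase of its longest transcript this was 39694 in NIK KO and 46384 in WT with PBS, and Adam8, next in order, stood at 4531 in NIK KO and 4519 in WT. The log2 fold changes of Spp1 in the authors' deposited tables were -0.33 ± 0.16 with IL-4 (DESeq2 p = 0.0341, adjusted p = 1.00) and -0.22 ± 0.25 with PBS (DESeq2 p = 0.362). Vcan, for the large proteoglycan versican, averaged 535 in NIK KO and 566 in WT with IL-4 and 885 in NIK KO and 844 in WT with PBS, within its error in both. Thbs1, for thrombospondin-1, averaged 86.6 in NIK KO and 96.3 in WT with IL-4 and 263 in NIK KO and 197 in WT with PBS (-0.15 ± 0.45 and 0.42 ± 0.34 in the authors' deposited tables, DESeq2 p = 0.733 and 0.219).

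**Figure D4:**
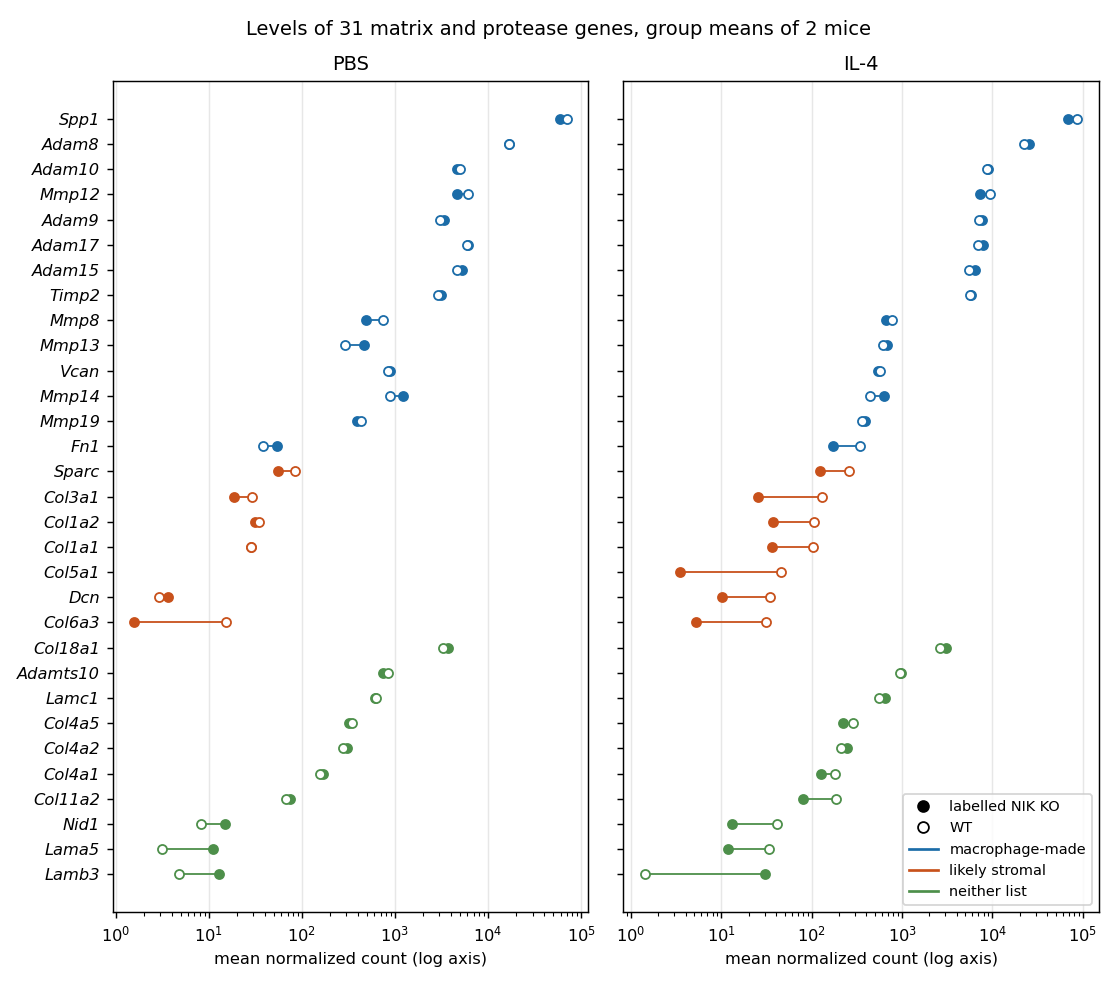
Mean normalized counts per group on a log axis for the 31 named members, with PBS (left) and IL-4 (right). Filled points are the libraries labelled NIK KO and open points WT; levels are not divided by transcript length. Pairs of points nearly coincide for Adam8, Adam10 and Timp2 and stand apart with IL-4 for Col3a1, Col5a1 and Lamb3.

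The matrix metalloproteinases had no calls. Mmp12, the macrophage elastase and the most abundant of them, averaged 7263 normalized counts in NIK KO and 9392.5 in WT with IL-4 and 4626 in NIK KO and 6071 in WT with PBS. In the authors' deposited tables its log2 fold changes were close to each other, -0.37 ± 0.17 with IL-4 (DESeq2 p = 0.0308, adjusted p = 1.00) and -0.39 ± 0.23 with PBS (DESeq2 p = 0.0950, adjusted p = 1.00). Mmp13, a collagenase whose gene lies next to Mmp12 on chromosome 9, ran the other way. It averaged 464 in NIK KO and 289 in WT with PBS (0.68 ± 0.32 in the authors' deposited table, DESeq2 p = 0.0301, adjusted p = 1.00) and 675 in NIK KO and 619 in WT with IL-4. Mmp8, the neutrophil collagenase, in the same gene cluster, averaged 485 in NIK KO and 750 in WT with PBS (-0.63 ± 0.28 in the authors' deposited table, DESeq2 p = 0.0236, adjusted p = 1.00) and 662 in NIK KO and 773 in WT with IL-4. The neighbouring genes of 1 cluster thus had estimates on both sides of 0, none of them past the adjusted threshold.

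Mmp14, the membrane-type collagenase that activates pro-Mmp2, had an unusually wide error for its level. It averaged 624 normalized counts in NIK KO and 439 in WT with IL-4 and 1204 in NIK KO and 877 in WT with PBS, and its log2 fold changes were 0.51 ± 1.15 and 0.46 ± 1.06 in the authors' deposited tables. The median SE of the 4276 genes of similar base mean with IL-4 was 0.23, and 1 of them had a larger SE than Mmp14. With PBS the median was 0.27 over 3799 genes, and 12 had a larger one. With IL-4 its 95% interval ran from -1.75 to 2.76, so a change of several fold either way was not detectable. Mmp19 was level in both tables (0.10 ± 0.26 with IL-4 and -0.17 ± 0.30 with PBS in the authors' deposited tables). Mmp2, a gelatinase typical of fibroblasts, averaged 27.7 in NIK KO and 46.9 in WT with IL-4 and 24.6 in NIK KO and 57.7 in WT with PBS, and Mmp9, the gelatinase of myeloid cells, 50.1 in NIK KO and 69.2 in WT with IL-4 and 64.6 in NIK KO and 79.8 in WT with PBS. There were 0 calls by DESeq2 and 0 with an unadjusted p under 0.05 among these 4 comparisons.

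**Figure D5:**
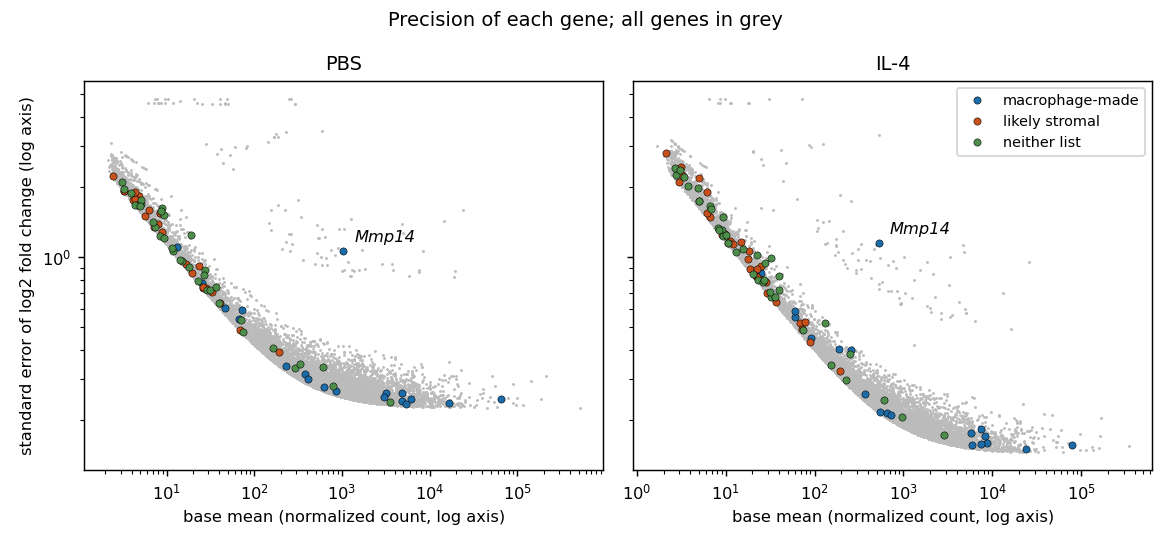
SE of the log2 fold change against base mean, both on log axes, for all genes (grey) and for the members by class, with PBS (left) and IL-4 (right). The SE falls as base mean grows, and Mmp14, at SEs of 1.06 with PBS and 1.15 with IL-4, lies far above genes of its level.

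The 5 abundant Adam sheddases were close to level. Adam8, a leukocyte protease, averaged 25380 normalized counts in NIK KO and 22440 in WT with IL-4 and 16623 in NIK KO and 16579 in WT with PBS. Adam10 and Adam17, the main sheddases of cell-surface receptors and cytokines, averaged 8842 and 7845 in NIK KO and 8668 and 6915 in WT with IL-4, and 4636 and 6154 in NIK KO and 5031 and 5993 in WT with PBS. The log2 fold changes of Adam8, Adam9, Adam10, Adam15 and Adam17 in the authors' deposited tables lay between 0.03 and 0.21 with IL-4 and between -0.12 and 0.19 with PBS, with SEs of 0.15 to 0.18 and of 0.24 to 0.26. For Adam8 with IL-4 the 95% interval of -0.12 to 0.47 bounds the difference, and for Adam10 that of -0.28 to 0.34. Of all 13 Adam genes listed with IL-4, 5 were lower and 8 higher, with 0 called by DESeq2 and 0 with an unadjusted p under 0.05. Adam1a shares 100% of its 31-base transcript words with other genes and its counts are therefore uncertain.

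Adamts proteases cut proteoglycans and process procollagen, and most were near the detection limit. Adamts10, which binds fibrillin microfibrils, was the exception, at 960 normalized counts in NIK KO and 956 in WT with IL-4 and at 748 in NIK KO and 846 in WT with PBS. Adamts2, the procollagen N-proteinase, is listed with IL-4 alone, at 0.502 in NIK KO and 9.58 in WT (-4.25 ± 2.18 in the authors' deposited table, DESeq2 p = 0.0513). Of 7 Adamts genes listed with IL-4, 6 were lower and 1 higher, 0 were called by DESeq2 and 0 had an unadjusted p under 0.05. Timp2, the abundant inhibitor, averaged 5725 in NIK KO and 5668 in WT with IL-4 and 3080 in NIK KO and 2894 in WT with PBS, with a 95% interval of -0.33 to 0.36 and a DESeq2 p of 0.934 with IL-4. Timp1 and Timp3 lay below 30 in every group.

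Set side by side, several members had their highest mean in WT with IL-4. For Fn1 the ratio of the IL-4 mean to the PBS mean was 3.19 in NIK KO and 9.14 in WT, for Col3a1 1.39 in NIK KO and 4.51 in WT, for Col1a1 1.28 in NIK KO and 3.60 in WT, and for Col1a2 1.21 in NIK KO and 3.07 in WT. By contrast Adam9 had ratios of 2.32 in NIK KO and 2.30 in WT, Timp2 1.86 in NIK KO and 1.96 in WT, and Mmp14 0.518 in NIK KO and 0.501 in WT. Not every stromal gene had the larger ratio in WT. Col6a3 had ratios of 3.33 in NIK KO and 2.01 in WT, and Col5a2 3.84 in NIK KO and 3.33 in WT. Col6a2 had 2.01 in NIK KO and 1.86 in WT, and Sparc lay between, at 2.25 in NIK KO and 3.13 in WT. These ratios cross tables that were normalized separately and carry no test: over 9148 genes of base mean 100 or more the median WT level itself was 0.26 higher with IL-4 on the log2 scale. The direct test of the difference between treatments is given above for Fn1 and for Col3a1, whose effects were not shown to differ. After adjustment 0 members passed it.

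The genes that build and bind matrix but are not members were counted from 4 lists. Of 27 genes for collagen folding, modification and crosslinking, 24 are listed with IL-4, 13 lower and 11 higher. DESeq2 called 0 of them, and 2 (8.33%) had an unadjusted p under 0.05, against 2.95% of all genes. These 2 were Serpinh1, the collagen chaperone HSP47, at 27.2 normalized counts in NIK KO and 81.9 in WT (-1.59 ± 0.54 in the authors' deposited table, DESeq2 p = 0.00334, adjusted p = 0.691), and Plod3, a collagen lysyl hydroxylase, at 2846 in NIK KO and 2228 in WT (0.35 ± 0.18, DESeq2 p = 0.0484). Of 36 other structural matrix genes 29 are listed, 24 lower and 5 higher, with a median of -0.39, and 12 have a base mean under 10. Over all genes of base mean 10 to 100, 1557 of 2635 were lower. In this list 0 genes were called by DESeq2, and 1 (3.45%) had an unadjusted p under 0.05, against 2.95% of all genes. That 1 was Nid2, the second nidogen, at 37.2 in NIK KO and 87.5 in WT (-1.24 ± 0.54 in the authors' deposited table, DESeq2 p = 0.0221), and Mfap4, a microfibril-associated gene, was at 0.928 in NIK KO and 6.77 in WT.

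Receptors and intracellular proteases were closer to level. Of 30 integrin and other matrix receptor genes 27 are listed with IL-4, 8 lower and 19 higher, with a median of 0.10, and 0 passed DESeq2's test before or after adjustment. The smallest p was that of Sdc3, the proteoglycan syndecan-3 (0.29 ± 0.17 in the authors' deposited table, DESeq2 p = 0.0873), followed by Ddr1, a collagen receptor kinase (-1.30 ± 0.86). Of 22 cathepsin and plasminogen system genes 21 are listed, 15 lower and 6 higher, with a median of -0.07, and again 0 passed before or after adjustment by DESeq2. Furin, which activates Adam and membrane-type Mmp precursors, was at 0.37 ± 0.20 and Ctsb, the lysosomal protease cathepsin B, at 0.26 ± 0.17 in the authors' deposited table. With PBS 0 genes of these 4 lists had an unadjusted p under 0.05 in the DESeq2 test, against 1.24% of all genes. The medians with PBS were 0.00, -0.03, 0.07 and -0.03 in the order given. Of the other structural matrix genes 20 are listed with PBS and 29 with IL-4, so their medians cover unlike sets of genes.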

How the data were processed

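RNA was sequenced from bone-marrow-derived macrophages of 2 NIK KO and 2 WT mice per treatment, 8 libraries. The submitters' processing notes name Salmon 1.4.0, DESeq2 1.32.0 and build GRCm39, and no annotation, filter or role of these tools is given in the sources used here. For each gene the authors deposited, per the file headers, a base mean (a signal, counts divided by size factors and averaged over the 4 libraries of a table), a log2 fold change with its standard error, a Wald statistic (a score), a p-value and an adjusted p-value. The Wald statistic equals the fold change over its SE, and Benjamini-Hochberg adjustment of the p-values matched the adjusted ones with a tolerance of 3.20e-05. No adjusted p is listed for 551 genes with IL-4, 8 of them members, and they were left so.

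Group means were recovered from base mean and fold change, as the groups are of equal size. Depth per library is unknown, and nothing says that the 2 mice of a group were handled apart, so p-values measure the spread between these samples, which may be technical. The median SE of genes of base mean 100 or more was 0.30 with PBS and 0.22 with IL-4. Genes were called at a deposited adjusted p under 0.05. For the difference between treatments, IL-4 minus PBS fold changes were divided by the combined SE (errors taken as independent), two-sided, normal distribution, Benjamini-Hochberg over 13384 genes. Intervals are 95% normal intervals from the SE. Named members are those of base mean 100 or more in both tables, those called or at an unadjusted p under 0.05, and the 3 with the smallest p in the difference. For the fibroblast list and the lists of matrix genes outside the members they are the 2 genes with the smallest p with IL-4. In the other marker lists that rule was not followed throughout, and the genes named were chosen with their values seen. Other members named beside them were chosen for their role, with their values seen. The members and all lists were chosen with earlier results of these data known. Genes of similar base mean are those within 2-fold of the gene's own. Transcript lengths, shared 31-base words and gene order came from GENCODE M21 (GRCm38), promoter windows from RefSeq (GRCm38.p6). Features of the proteins were not analysed here. Python 3.11.15, numpy 2.4.6, pandas 2.3.3, scipy 1.17.1, statsmodels 0.14.6 and matplotlib 3.10.9 were used, and the steps were tested on simulated data.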

Additional observations from a re-analysis of the deposited data

How the results depend on the processing

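The 3 members called with IL-4 (Col3a1, Col5a1 and Lamb3) remained with a threshold of 0.1, with genes of base mean 10 or more and after re-centring, and 2 of them (Col3a1 and Lamb3) among genes in both tables, where Col5a1 is not listed. Among genes of base mean 100 or more the count was 0 members of 9 genes called, against 17 genes in all; all 3 members have a base mean under 100 and do not enter that test. Without genes that share over 50% of their 31-base words, 1 member (Col3a1) of 6 genes called was left with IL-4 and 0 genes with PBS, against 5. Adam1a is the 1 member above that share, so Col5a1 and Lamb3 were not left out. Their own p-values were unchanged, and only the set of genes they were adjusted over differed. For the other genes the cause was not tested. A t distribution with 2 degrees of freedom gave 0 genes and 0 members in both tables, and the smallest p it gave any gene was 0.00371 with PBS and 0.00246 with IL-4, so it could pass none. In the difference between treatments, 20 genes passed with an assumed error correlation of 0.5 and 0 with 4 degrees of freedom, against 2, and 0 members passed under any of these settings. The class medians kept their direction under re-centring, as did the 61 fold changes of named members except that of Adamts10 with IL-4, which was 0.01 as deposited and -0.01 re-centred, both far inside its SE. All 61 kept their direction with 1 added to both group means. No paired analysis was possible because the genotypes are different mice with no shared numbers and the tables hold no value per library. For the same reason leaving out a mouse was not run, and 2 mice per group limit what could be detected for genes near the detection limit.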

Other observations

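Lox, which encodes the collagen-crosslinking lysyl oxidase, shared the wide error of Mmp14. It averaged 467 normalized counts in the libraries labelled NIK KO and 213 in WT with PBS, with an SE of 1.49 against a median of 0.32 over 4123 genes of similar base mean, 11 of which had a larger one. With IL-4 its SE was 1.30 against a median of 0.30 over 3072 genes, and 8 had a larger one. Cd14, a macrophage receptor for bacterial lipopolysaccharide, had an SE of 0.643 with IL-4 against a median of 0.169 over 1336 genes, and Tgm2, a transglutaminase that crosslinks matrix and a known IL-4 target in macrophages, one of 0.579 against 0.167 over 1111 genes. Values per library, which would show whether 1 mouse carries these spreads, were not analysed here.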
